A study of Homo sapiens with 16 samples.

Results

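The ZNF genes of human chromosome 19 were taken as every protein-coding gene of the GENCODE annotation (release 44, hg38) on that chromosome whose symbol starts with ZNF, 249 of 20033 protein-coding genes. Merged peak regions that touched an exon of these genes numbered 400 of 36970, on 232 genes, and 229 genes were credited with a peak summit in an exon in at least 1 list. A summit in exons of several genes was credited to 1 of them, and to a member wherever a member was among them. Of member summits, 9.43% also lay in an exon of another gene, against 8.51% of other exonic summits. The study applied MeRIP-seq, in which an antibody to N6-methyladenosine (m6A) enriches RNA fragments that are sequenced beside unenriched input RNA, to 2 human prostate cancer lines on day 3 of growth, with 4 IP and 4 input libraries each. C4-2B is an enzalutamide-sensitive line, and MDV-R is a line derived from it that resists enzalutamide, an androgen receptor antagonist, and is kept in that drug (both are labelled WT, and each is 1 line). No label says that the replicates came from separate cultures, so p-values measure the spread between these libraries. MDV-R sample titles also include T24R2, which names a different line. Here the cell line field was followed. All 9 urothelial markers examined lacked an exonic summit in all 8 lists, and all 10 prostate markers had one in at least 3 of the 4 C4-2B lists and in all 4 MDV-R lists.

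Most of these genes encode C2H2 zinc finger proteins that bind DNA through an array of short fingers, each folded around a zinc ion and joined to the next by a conserved linker. Many also carry a KRAB domain, which recruits the co-repressor TRIM28 and, through it, the histone methyltransferase SETDB1, and many such proteins silence transposable elements. The family grew by gene duplication, so its members lie in clusters and the whole finger array is usually coded by a single last exon. The m6A methyltransferase complex deposits m6A at DRACH sequences (D is A, G or T; R is A or G; H is A, C or T), among which GGAC is favoured, and long exons, the last exon among them, are known for high m6A.

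A pattern search of the translated reference transcripts found 3106 fingers in the 249 genes, with a median of 12 and a maximum of 36 per gene, and 99.2% of them were coded by the last coding exon. The KRAB A box pattern was found in 178 genes. The last exon had a median length of 3338 nt, and 219 genes had at least 1000 nt of coding sequence in their last coding exon. Such duplicated exons could share reads, and the authors kept uniquely mapped reads only. Of the 50-mers centred on exonic positions of the members, 93.5% occurred once in the genome, against 93.9% at the members' summits. For 100-mers the values were 98.8% and 97.8%. Single members went as low as 54.9% of 50-mers, and of genes named below ZNF66 had 73.3%, ZNF814 75.1%, ZNF587 73.6% and ZNF417 66.9%.

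The sequences under the strongest summits of 8 member regions in coding sequence are given below, 30 nt on either side of the summit, 5′ to 3′ on the strand of the gene, from hg38. They were picked from the regions named below to show the DRACH letters, in capitals, that these finger exons carry. The regions of ZNF814, ZNF850, ZNF43 and ZNF66 had fewer IP tags in MDV-R, those of ZNF442, ZNF565 and ZNF226 had more, and the region of ZNF628 had a higher fold enrichment.
ZNF814, chr19:57873793-57873853, - strand: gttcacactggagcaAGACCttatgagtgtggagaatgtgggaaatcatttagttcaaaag
ZNF850, chr19:36748080-36748140, - strand: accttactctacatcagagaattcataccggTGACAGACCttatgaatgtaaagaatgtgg
ZNF43, chr19:21809748-21809808, - strand: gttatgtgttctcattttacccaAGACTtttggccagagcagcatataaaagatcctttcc
ZNF66, chr19:20805985-20806045, + strand: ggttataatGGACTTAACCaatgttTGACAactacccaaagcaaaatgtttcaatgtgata
ZNF442, chr19:12350700-12350760, - strand: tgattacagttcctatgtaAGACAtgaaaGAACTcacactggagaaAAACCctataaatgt
ZNF565, chr19:36183230-36183290, - strand: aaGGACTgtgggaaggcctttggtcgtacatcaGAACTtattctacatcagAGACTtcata
ZNF226, chr19:44175499-44175559, + strand: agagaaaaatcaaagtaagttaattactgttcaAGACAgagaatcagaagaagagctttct
ZNF628, chr19:55484101-55484161, + strand: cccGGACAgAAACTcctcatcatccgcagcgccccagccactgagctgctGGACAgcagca

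Windows of this size were taken at 44 summits of named regions, and 9 of them held no DRACH match, 4 of the 26 coding ones included. These 9 were the windows of ZNF574, ZNF575, ZNF525, ZNF544, ZNF587, ZNF587B, the read-through ZNF816-ZNF321P and both regions of ZNF132, several of which are named below for a change. Among the 8 shown, GGAC stood in those of ZNF66, ZNF565 and ZNF628 and in none of the other 5. The window of ZNF442 held AAACC, the letters that code the end of the linker between fingers in many members.

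The IP libraries held 864000 to 1207000 tags, as recovered from the lists, with a median of 35 to 50 tags at member summits. C4-2B replicate 1 stands apart, with the most tags and the shortest list. For that list alone the IP tags were scaled down to match a smaller input, by a factor of 0.747. For all other lists the factor was 1, so each of those inputs was at least as deep as its IP library. Their exact depth is unknown here. The C4-2B lists held 13191 to 24746 peaks and the MDV-R lists 23880 to 30645. The part of input depth and of this scaling in the results below was not tested.

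Most ZNF genes of chromosome 19 carried a peak in every list. In C4-2B 201, 222, 221 and 219 of the 249 genes held an exonic summit in replicates 1 to 4, and in MDV-R 213, 212, 214 and 215. The lines overlapped, with means of 216 ± 9.91 and 214 ± 1.29 genes (SD over 4 lists each; exact permutation test, two-sided, p = 0.743). The overlap rests on C4-2B replicate 1, which has the shortest list: the other 3 C4-2B lists lay above all MDV-R lists, and without it the difference, MDV-R minus C4-2B, was -7.17 genes instead of -2.25 (exact permutation p = 0.0571, the smallest 4 against 3 lists allow). With every list trimmed to its 13191 strongest peaks, it was -10.5 genes (exact permutation p = 0.0286). A summit was present in all 8 lists in 191 member genes, or 76.7%. For comparison, this held for 71.5% of 267 ZNF genes on other chromosomes, 45.8% of 1577 other genes with at least 1000 nt coding in the last coding exon, 19.8% of 1227 other genes on chromosome 19 and 24.8% of all other protein-coding genes. The lists hold no expression levels, and the shares were not adjusted for them. Genes with the KRAB pattern and genes without it had a summit in all 8 lists in 77.5% and 74.6% of cases.

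The members' exonic summits numbered 313, 345, 342 and 354 in the C4-2B lists and 324, 311, 347 and 337 in the MDV-R lists. Their share of all exonic summits was 3.84, 2.701, 2.84 and 2.98% in C4-2B and 2.47, 2.23, 2.67 and 2.12% in MDV-R. All 4 C4-2B lists lay above all 4 MDV-R lists, at 3.09% ± 0.512 against 2.37% ± 0.247 (SD over 4 lists each, exact permutation p = 0.0286, the smallest this design allows). With exons shared between genes left out, the lines overlapped and the difference, -0.70 percentage points, did not pass (exact permutation p = 0.0571). The counts of member summits overlapped between the lines, and the summits of all other genes numbered 7836, 12429, 11681 and 11506 in C4-2B and 12779, 13657, 12645 and 15552 in MDV-R. Without C4-2B replicate 1 the difference was -0.47 percentage points instead of -0.72.

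**Figure D1:**
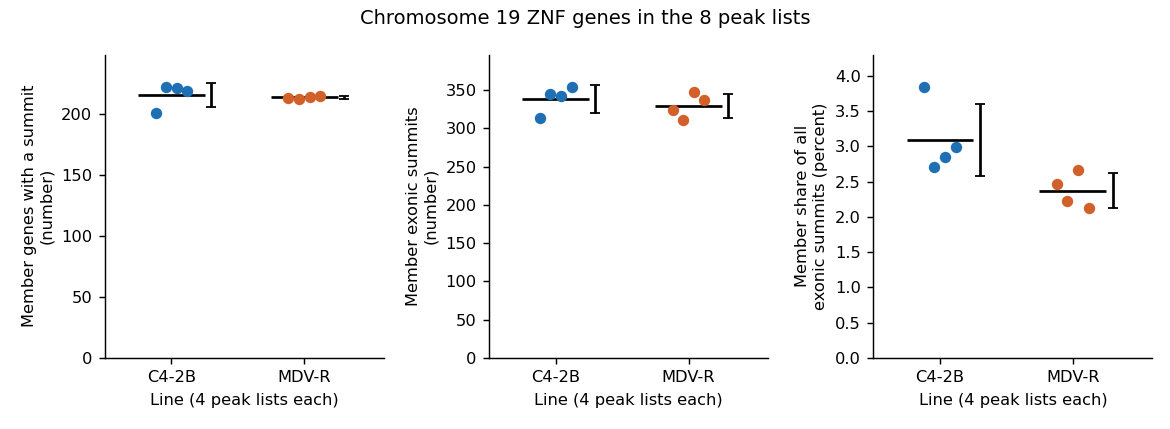
Member genes with an exonic summit (left), member exonic summits (middle) and their share of all exonic summits in percent (right) in the 4 peak lists of each line; points are lists, lines the mean and bars to their right the SD. The counts of the lines overlap, whereas the share lies at or above 2.701% in C4-2B and at or below 2.67% in MDV-R.

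No exonic summit was credited in any list to 20 members, namely ZNF541, ZNF414, ZNF439, ZNF540, ZNF556, ZNF491, ZNF154, ZNF626, ZNF729, ZNF569, ZNF665, ZNF560, ZNF69, ZNF536, ZNF534, ZNF625-ZNF20, ZNF99, ZNF486, ZNF723 and ZNF559-ZNF177. Of all members, 17 had no merged region. The read-through genes ZNF625-ZNF20 and ZNF559-ZNF177 share exons with ZNF20, ZNF625 and ZNF177, and their 3 and 1 regions were called in all 8 lists, with the summits credited to those genes. The lists give peaks and no read counts, so for the other 18 genes a low level of RNA and a lack of m6A cannot be told apart. The exonic 50-mers of the 20 genes were unique in 94.2% (median), against 96.2% in the genes with a summit in all 8 lists. Of the 5 genes with the most fingers, ZNF208 (36 fingers) had an exonic summit in 5 lists, ZNF729 (34) in none, and ZNF91 (31), ZNF850 (29) and ZNF845 (26) in all 8.

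Nearly every member summit lay in a last exon. The share of member summits in the last exon of at least 1 transcript was 97.1, 95.4, 95.0 and 95.2% in the C4-2B lists and 94.8, 95.8, 95.4 and 94.7% in the MDV-R lists. All other protein-coding genes had 62.7% ± 2.79 (SD over 8 lists), so that the members were higher by 32.7 percentage points and in 8 of 8 lists (exact two-sided sign-flip permutation p = 0.00781, the smallest 8 lists allow). The members also lay above ZNF genes on other chromosomes (74.6% ± 3.12) and above other genes with a long last coding exon (80.4% ± 3.47), in 8 of 8 lists each and with the same p in the same exact test. The 8 lists share their genes and come from 2 lines, so this p measures agreement between lists.

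Most of the members' exonic summits lay in coding sequence, 68.9% ± 1.81 of them (SD, n = 8 lists), against 55.6% ± 1.81 in all other genes (higher in 8 of 8 lists, exact sign-flip permutation p = 0.00781). ZNF genes on other chromosomes were close to the members, at 66.6% ± 3.62 (members higher in 7 of 8 lists, exact sign-flip permutation p = 0.0391). Against other genes with a long last coding exon the direction turned, since 72.9% ± 2.91 of their summits were coding and the members were lower in 8 of 8 lists. A further 27.1% ± 1.25 of member summits lay in 3′UTRs. The median distance of a member summit from the stop codon had a mean over the lists of -507 ± 28.9 nt along the reference transcript (negative values are upstream of the stop), against -269 ± 14.5 nt in all other genes and -717 ± 46.7 nt in other genes with a long last coding exon. Of the member summits, 16.5% ± 0.828 lay within 200 nt of the stop codon, against 28.2% ± 0.702 and 14.01% ± 0.824. The finger array, from the first to the last finger, held 46.1% ± 1.45 of member summits on reference transcripts, and 26.9% of the members' exonic bases. The array lies in coding sequence, which held most member summits, and its share of the coding bases was not computed.

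The letters at the members' summits differed from those of other genes. GGAC, read on the gene's strand, stood at most 50 nt from the summit at 27.2, 29.9, 26.9 and 29.1% of member summits in C4-2B and 29.6, 27.97, 28.5 and 28.8% in MDV-R. All other genes had 47.9% ± 1.33 (SD, n = 8 lists), ZNF genes on other chromosomes 38.0% ± 1.59 and other genes with a long last coding exon 45.3% ± 1.03, and the members were lower than each in 8 of 8 lists (exact sign-flip permutation p = 0.00781 each). The summit was still richer in GGAC than windows 300 nt away in the genome, which held it in 16.8% ± 1.22 of cases in members and 29.2% ± 0.296 in other genes. These windows, here and below, were not taken along the transcript and can reach into introns. Summits of other genes lay less often in a last exon, so the windows of members and other genes are not alike. GGAC is sparse in the members as a whole: their coding sequence held 2.87 matches per kb, against 4.99 in that of other genes. The wider DRACH pattern was by contrast more frequent in members, at 94.9% ± 0.772 of summits against 89.1% ± 0.992 (higher in 8 of 8 lists, exact sign-flip permutation p = 0.00781), but windows 300 nt away differed by about as much, 86.6% ± 1.03 in members and 81.1% ± 0.761 in other genes.

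AAACC was the most frequent DRACH sequence at member summits, with 38.6 ± 2.34 matches per 100 summit windows (SD, n = 8 lists) and 15.6% of all DRACH matches, against 4.63% in other genes. It was also the most frequent in ZNF genes on other chromosomes, with 23.8 ± 3.20 matches per 100 summit windows and 9.96% of their DRACH matches. In members it was no more frequent at the summit than 300 nt away (39.8 ± 1.21 matches per 100 windows, and higher at the summit in 2 of 8 lists). Of the 5 most frequent sequences in members, AGACA and AGACT were the ones over 1.5 times as frequent at the summit, at 26.0 ± 2.35 and 16.9 ± 1.72 per 100 windows, 1.80 and 1.81 times their frequency 300 nt away and higher in 8 of 8 lists each. Of all DRACH sequences, GGACT had the highest ratio, both in members (2.21 times, at 13.8 per 100 windows) and in all other genes (2.08 times), and GGACA was next in members (2.12 times). The linker between fingers carries much of the AAACC: of 2384 matches in the members' coding sequence, 46.7% fell in the codons of a linker, and 66.4% of the 1677 linkers found held it. The members' coding sequence had 5.33 AAACC per kb, against 1.05 in other coding sequence. A match shows letters and not a methylated base.

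Member peaks ranked high in their lists. The fold enrichment of a peak is its IP pileup over the local background, and its percentile was taken among all exonic summits of a list. Member summits had a mean percentile of 54.2, 58.7, 61.2 and 58.0 in C4-2B and 61.7, 65.4, 62.4 and 64.4 in MDV-R, against 49.7 ± 0.0625 in all other genes (higher in 8 of 8 lists, exact sign-flip permutation p = 0.00781). The gap to ZNF genes on other chromosomes (57.6 ± 2.16, members higher in 7 of 8 lists, exact p = 0.0234) and to other genes with a long last coding exon (58.5 ± 1.91, 6 of 8 lists, exact p = 0.0469) was far smaller. The 4 MDV-R lists lay above the 4 C4-2B lists (exact permutation p = 0.0286), while the members' median local background was 13.3, 9.77, 9.42 and 13.1 times the library average in C4-2B and 6.41, 5.06, 10.2 and 3.84 times in MDV-R.

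**Figure D2:**
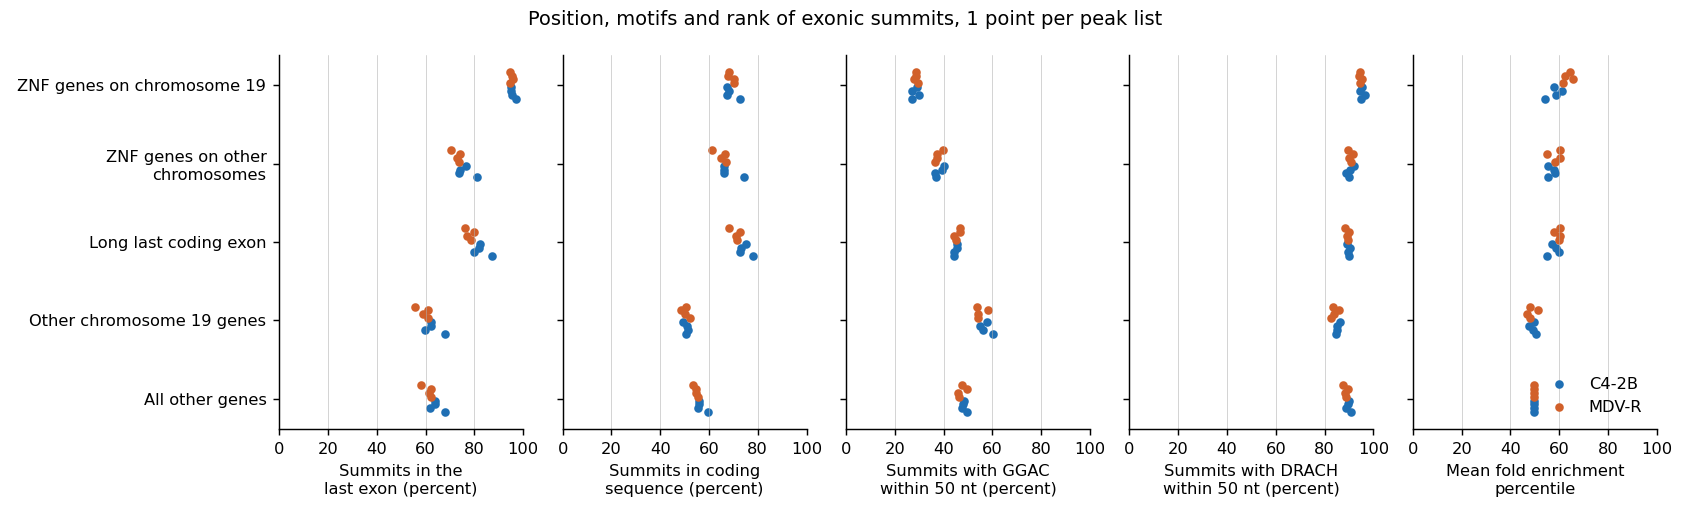
Exonic summits of the ZNF genes of chromosome 19 and of 4 sets of other genes, 1 point per peak list: share in a last exon, share in coding sequence, share with GGAC and with DRACH within 50 nt (percent), and mean percentile of fold enrichment. The members' points lie near 95.4% for the last exon and near 28.5% for GGAC, apart from those of every other set.

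Between the lines, the regions of these genes were mostly shared. Of the 400 member regions, 223 were called in all 8 lists, or 56.0% of the 398 called in any list, against 25.9% of all 36076 regions called in any list. Member regions had to touch an exon, whereas the regions of the background, here and below, did not. The shares were not adjusted for this. Regions called in 4 of 4 C4-2B lists and in no MDV-R list numbered 9 among the members, 2.26%, where the background was 1.22%. Regions called in 4 of 4 MDV-R lists and in no C4-2B list numbered 4, 1.00%, where the background was 3.68%. With lists of equal size, 567 and 516 of 19127 regions were called in C4-2B alone and MDV-R alone, 10 and 3 of them member regions. No region of any gene passed Fisher's exact test over the 8 lists after Benjamini-Hochberg adjustment (the lowest adjusted p was 0.584); the unadjusted p was 0.0286 for these 13 regions, the smallest that 4 lists against 4 allow. No other tool was run on calls.

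The regions called in C4-2B alone included 6 regions on 5 genes of the cluster at chr19:19668796-24129968. Their IP tags are given in CPM (IP tags covering the summit, scaled to the total IP tags of the library). ZNF93, known for silencing LINE-1 elements, had 17.4, 27.7, 16.1 and 24.3 CPM in the 4 C4-2B libraries, ZNF506 21.5, 23.8, 30.01 and 25.5, ZNF85 36.5, 40.6, 40.7 and 53.3 and ZNF208 15.7, 11.9, 15.01 and 19.7. ZNF730 held a pair of such regions in its last exon, with 14.9, 23.8, 15.01 and 19.7 and with 11.6, 23.8, 23.6 and 26.6 CPM; in C4-2B replicate 2 the value is that of 1 peak reaching both. ZNF844 (24.9, 36.7, 41.8 and 47.5) and ZNF677 (8.29, 12.9, 18.2 and 12.7) lie in other clusters. The remaining region, chr19:57856990-57858518, touches an exon of ZNF814 and takes its 104, 115, 126 and 141 CPM in all 4 lists from a peak whose summit lies outside it, in an exon of ZNF587 on the opposite strand; that peak was also called in every MDV-R list, at 85.5, 87.1, 85.7 and 88.1 CPM. In the MDV-R libraries ZNF44 had 7.77, 13.8, 13.6 and 13.4 CPM, ZNF575 15.5, 9.56, 18.5 and 11.2, ZNF574 56.6, 68.0, 62.3 and 48.0, and ZNF793 82.1, 76.5, 74.0 and 71.4, the last 2 with the summit of the strongest peak outside exons of protein-coding genes. At ZNF574 a summit of MDV-R replicate 1 lay in a 5′UTR. The ZNF793 region also covers ZNF571-AS1, an antisense gene. These calls are of regions and not of genes. ZNF677, ZNF814, ZNF44, ZNF574 and ZNF793 each held an exonic summit in all 8 lists. ZNF93, ZNF208 and ZNF844 each held one in 1 MDV-R list as well. ZNF506, ZNF85 and ZNF730 held none in MDV-R, and ZNF575 none in C4-2B. Without C4-2B replicate 1, 20 member regions were called in 1 line alone, 16 in C4-2B and 4 in MDV-R, but of all 36076 regions 1079 were then called in C4-2B alone, instead of 439. With peaks assigned by their summit, 6 and 4 member regions were called in 1 line alone. Several of the peaks named rest on few tags, from 7 to 19 for ZNF44 and ZNF575, so that a list without a call need not lack the peak.

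For the regions called in all 8 lists, tags at the summit were compared. The number of IP tags covering a summit was recovered from the fold enrichment and p-value of each peak and given in CPM; local background, set by the input, was given as multiples of the library average. These regions had to be called in every library, so a region lost in a line is not among them. In bulk libraries, fewer cells with a transcript and less of it per cell cannot be told apart. limma was run over all 9324 such regions, of which 223 were member regions. IP tags were lower in MDV-R at 50 member regions, 22.4%, beside a background of 14.8% of all regions, and higher at 17, 7.62%, beside 20.8%. The median log2 change was -0.06 over member regions and 0.06 over all regions. With each library centred on its median, 92 member regions were lower and 21 higher, and of all regions 2725 lower and 2321 higher in place of 1383 and 1937. The 50 lower regions fell on 45 genes or pairs of overlapping genes.

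ZNF91, which silences SVA retrotransposons, had the largest decrease among the member regions called in all 8 lists. Its region chr19:23358385-23359318, in the 3′UTR, had 87.9, 108, 120.0 and 133 CPM of IP tags in C4-2B replicates 1 to 4 and 17.8, 26.6, 29.2 and 26.8 in MDV-R. The lines did not overlap, and the change was -2.17 ± 0.17 on the log2 scale (SE, n = 4 per line, limma adjusted p = 6.37e-37). Its local background fell too, from 36.6, 29.2, 29.8 and 32.8 times the library average in C4-2B to 1.38, 2.02, 1.88 and 1.24 times in MDV-R, a change of -4.33 ± 0.45 on the log2 scale (SE, n = 4 per line, limma adjusted p = 2.40e-07). Fold enrichment was 6.68, 10.2, 10.996 and 11.1 in C4-2B and 12.01, 15.9, 18.9 and 18.3 in MDV-R, where every value was higher, but the change did not pass (limma adjusted p = 0.177). The other 2 regions of ZNF91 were not called in all 8 lists. Nor was the region of ZNF728 (chr19:22974826-22977314), picked after its values were seen, which had 82.1, 105, 90.0 and 99.6 CPM in C4-2B, 11.1 and 8.76 in MDV-R replicates 1 and 3, and no call in the other 2; it could not be tested.

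ZNF415 (chr19:53107939-53110127, coding) had 40.6, 54.5, 42.9 and 52.1 CPM of IP tags in C4-2B and 15.5, 21.2, 12.7 and 15.6 in MDV-R, with no overlap, a change of -1.56 ± 0.21 on the log2 scale (SE, n = 4 per line, limma adjusted p = 1.14e-12). ZNF850 (chr19:36747721-36750945, coding), one of the longest finger arrays, had 112, 141, 137 and 159.8 in C4-2B and 62.1, 64.8, 66.2 and 62.5 in MDV-R, a change of -1.09 ± 0.14 on the log2 scale (SE, n = 4 per line, limma adjusted p = 1.71e-13). Background at ZNF850 was 23.3, 14.6, 17.3 and 36.1 times the library average in C4-2B and 4.83, 2.07, 5.63 and 1.77 times in MDV-R (log2 change -2.76, limma adjusted p = 3.92e-04), and its fold enrichment did not pass (limma adjusted p = 0.131). At ZNF850, as at ZNF91, both tags and background were lower in every MDV-R library than in any C4-2B library, whereas at ZNF415 the backgrounds overlapped.

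ZNF814, the member with the most merged regions (7), had 73.8, 97.1, 110.4 and 112 CPM of IP tags in C4-2B and 37.7, 26.6, 53.6 and 44.6 in MDV-R at the region over its finger exon (chr19:57873187-57875445). The values did not overlap, and the change was -1.30 ± 0.16 on the log2 scale (SE, n = 4 per line, limma adjusted p = 4.03e-15). Background there was 26.6, 21.6, 27.5 and 27.7 times the average in C4-2B and 10.9, 3.03, 16.9 and 5.03 times in MDV-R (log2 change -1.82, limma adjusted p = 0.00890). A region shared with ZNF587 (chr19:57858697-57860197) changed by -0.48 (limma adjusted p = 0.00224), and the other 5 regions of ZNF814 were not called in all lists. Of the members with the next highest numbers of regions, ZNF235 (6 regions, 4 of them shared with ZNF227 or ZNF233) had no change that passed, ZNF667 (5) had fewer tags at its 5′UTR region (log2 change -0.59, limma adjusted p = 0.00719) and ZNF208 (5) had no region called in all lists. The next place was shared by genes with 4 regions each, which are not named on that ground.

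At ZNF132 and ZNF66, IP tags fell at 2 regions each. At the first region of ZNF132 (chr19:58432417-58436053) IP tags were 30.7, 32.7, 47.2 and 44.01 CPM in C4-2B and 11.1, 11.7, 20.4 and 15.6 in MDV-R, and at the second (chr19:58439349-58441389, which also touches the non-coding gene ZNF132-DT) 22.4, 42.6, 40.7 and 34.7 and 13.3, 9.56, 16.6 and 15.6. The changes were -1.41 and -1.34 on the log2 scale (limma adjusted p = 1.70e-09 and 3.28e-08). The second was the only member region whose fold enrichment was lower in MDV-R by the limma test, 15.01, 29.0, 26.6 and 21.6 in C4-2B and 9.74, 6.79, 13.4 and 8.62 in MDV-R, a change of -1.26 ± 0.36 on the log2 scale (SE, n = 4 per line, limma adjusted p = 0.0305), beside a background of 0.225% of all regions. This call was lost without C4-2B replicate 2, 3 or 4 and without MDV-R replicate 1, 2 or 4. Its local background was near the library average in both lines (1.37, 1.53, 1.49 and 1.52 and 1.11, 1.51, 1 and 2.47 times). ZNF66 changed by -1.33 and -1.21 (limma adjusted p = 3.66e-10 and 2.34e-08). ZNF43 (-1.20), ZNF480 (-1.09 at the region that fell most), ZNF223 (-1.07) and ZNF587B (-1.05) also fell by over 1 on the log2 scale, each with no overlap of the lines. ZNF43 had 68.0, 82.2, 78.2 and 90.3 CPM in C4-2B and 34.4, 28.7, 39.9 and 35.7 in MDV-R, and ZNF587B 50.6, 77.3, 71.8 and 62.5 and 31.1, 28.7, 32.1 and 33.5. All 4 also had a lower local background in MDV-R (limma adjusted p from 9.10e-04 to 0.0453).

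Fewer member regions rose. ZNF546 had 14.9, 26.7, 34.3 and 38.2 CPM of IP tags in C4-2B and 49.9, 44.6, 64.3 and 56.9 in MDV-R, a change of 0.99 ± 0.18 on the log2 scale (SE, n = 4 per line, limma adjusted p = 1.07e-06); the summits of its peaks lie outside the merged region (chr19:40013531-40013836), in coding sequence of the gene. ZNF529 (chr19:36589180-36589865, with the summit outside the exons of coding genes) had 11.6, 15.9, 20.4 and 20.8 and 23.3, 35.1, 36.0 and 30.1, a change of 0.88 ± 0.22 on the log2 scale (SE, n = 4 per line, limma adjusted p = 4.16e-04). Neither gene's lines overlapped. ZNF226 changed by 0.64, the region shared by ZNF177 and the read-through ZNF559-ZNF177 by 0.61, ZNF566 by 0.50, ZNF404 by 0.49, ZNF222 by 0.48, ZNF565 by 0.48, ZNF442 by 0.47 and ZNF260 by 0.45 (limma adjusted p from 0.00315 to 0.0418). At ZNF226 the 4 C4-2B libraries had 20.7, 30.7, 25.7 and 22.0 CPM and the MDV-R libraries 42.2, 39.3, 39.9 and 32.3. At ZNF260 the lines overlapped, with 41.4, 52.5, 76.1 and 53.3 and 76.6, 76.5, 71.1 and 74.7.

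**Figure D3:**
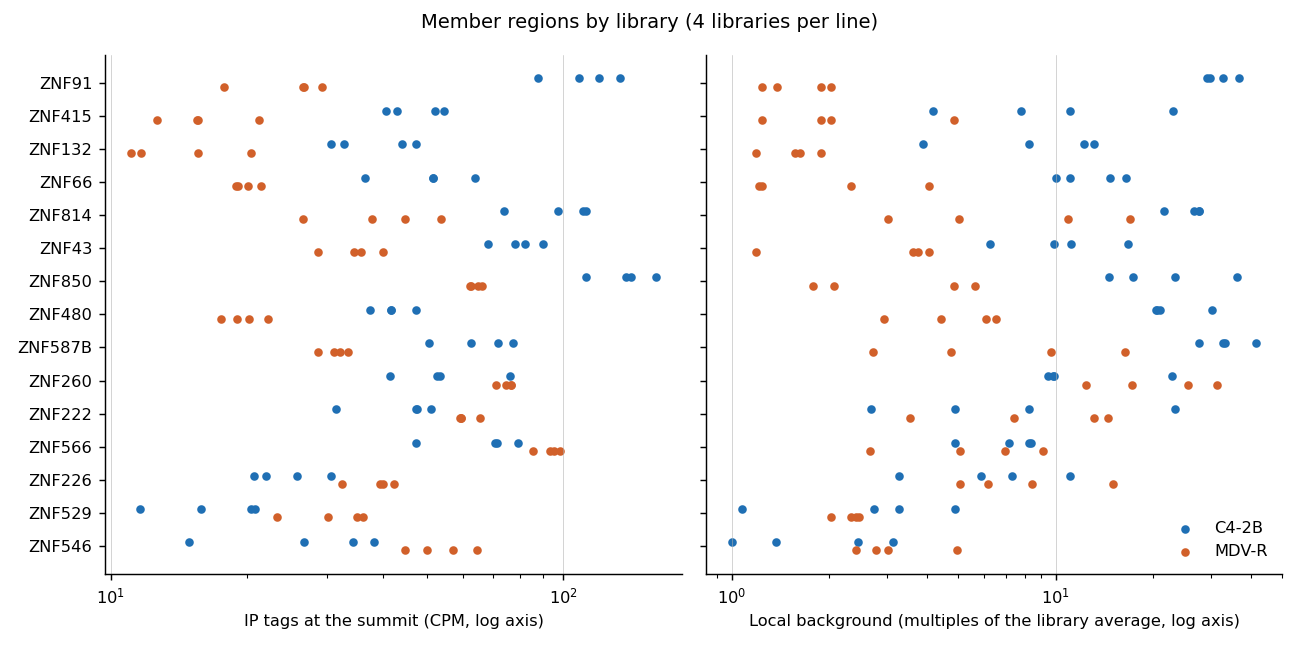
IP tags at the summit in CPM (left) and local background as multiples of the library average (right), both on log axes, for 15 named member regions; each point is a library, 4 per line, and the upper row of each gene is C4-2B. The 9 genes at the top have fewer IP tags in every MDV-R library than in any C4-2B library, as ZNF91 does with 17.8, 26.6, 29.2 and 26.8 against 87.9, 108, 120.0 and 133.

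Changes in IP tags went along with changes in background. Background was lower in MDV-R at 48 member regions, 21.5%, beside 13.4% of all regions, and higher at 0, beside 1.81% (0 member regions were higher at an unadjusted p under 0.05). Its median log2 change was -0.80 over member regions and -0.48 over all regions. The 10 largest decreases were those of ZNF91, ZNF850, both regions of ZNF66, the first of ZNF132, ZNF587B, ZNF480, ZNF551, ZNF415 and the read-through ZNF816-ZNF321P (-2.09), and 8 of these 10 are also among the regions with fewer tags named above. With each library centred on its median, 33 member regions were lower and 3 higher. Without MDV-R replicate 3, 103 member regions were lower in background, 46.2%, beside 33.7% of all regions. Of the 50 regions with fewer tags, 49 had a negative background change and 29 passed for both, and of the 17 with more tags 9 had a positive one. The median background change was negative over all regions too, so a negative sign was not particular to these 50. Across the 223 member regions the changes of both measures had a Pearson r of 0.748, and across all 9324 regions 0.743; regions are not independent replicates and both measures come from the same peak. The part of the background in the changes of IP tags was not tested.

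Fold enrichment, which sets tags against background, moved at few member regions. It was higher in MDV-R at 3, 1.35%, beside a background of 3.07%, and lower at the ZNF132 region described above. The median log2 change was 0.50 over member regions and 0.44 over all regions. ZNF551 had a fold enrichment of 4.88, 8.93, 9.43 and 6.32 in C4-2B and 14.8, 25.6, 10.2 and 23.3 in MDV-R, a change of 1.28 ± 0.36 on the log2 scale (SE, n = 4 per line, limma adjusted p = 0.0300). ZNF525 had 4.13, 8.15, 7.90 and 6.52 and 13.5, 17.2, 13.4 and 13.3 (log2 change 1.15, limma adjusted p = 0.0488), and ZNF628 7.42, 29.9, 18.9 and 13.7 and 38.3, 32.1, 33.1 and 34.6 (log2 change 1.15, limma adjusted p = 0.0431). None of these 3 had more IP tags in MDV-R (log2 changes -0.37, -0.36 and -0.28; ZNF551 was lower at a limma adjusted p of 0.0499). The background of each was lower there (log2 changes -2.13, -1.90 and -1.96, limma adjusted p up to 0.00744). After centring, no member region was higher by limma (16 at an unadjusted p under 0.05), and the second ZNF132 region alone was lower. Without MDV-R replicate 3, whose median background at member summits was the highest of its line, 47 member regions were higher, 21.1%, beside 22.0% of all regions. No member region passed in either direction without C4-2B replicate 4 or without MDV-R replicate 1, 2 or 4 (28 to 50 were higher at an unadjusted p under 0.05 by limma).

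**Figure D4:**
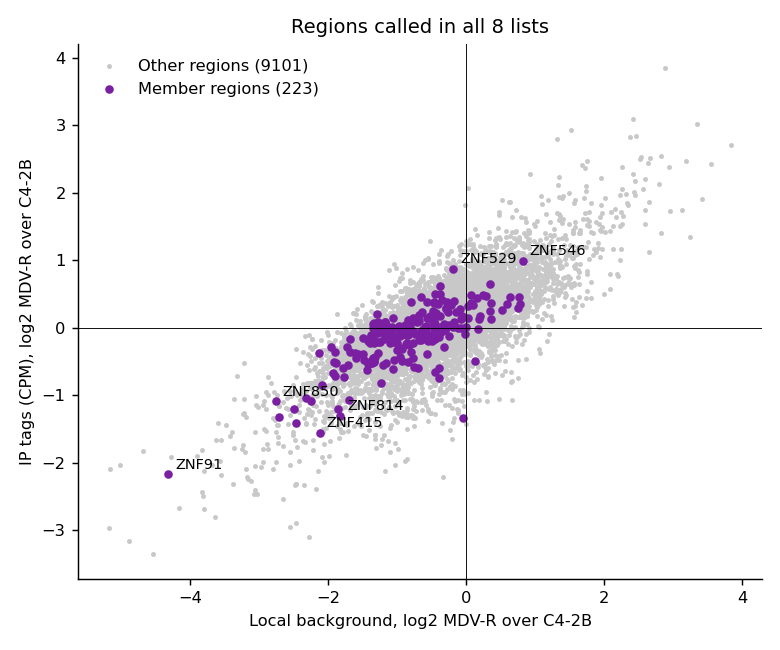
Log2 change (MDV-R over C4-2B) of IP tags (CPM) against that of local background for the 9324 regions called in all 8 lists, with the 223 member regions in purple. Both changes have the same sign at most member regions with fewer tags, and ZNF91 lies farthest from 0 among them.

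The 10 member regions with the highest mean IP tags were also looked at. For comparison, IP tags were lower at 50 and higher at 17 of the 223 member regions, and at 14.8% and 20.8% of all regions. ZNF121 had 158, 212, 214 and 226 CPM in C4-2B and 196, 189, 167 and 177 in MDV-R, and ZNF146 had 149, 184, 193 and 198 and 172, 194, 169 and 164. The lines overlapped at both, and at ZNF865 and ZNF264 (log2 changes 0.05 and -0.01, limma adjusted p = 0.773 and 0.966). Of the 10 regions with the highest mean, those of ZNF875 (-0.38), ZNF544 (-0.55) and no other passed, both lower in MDV-R (limma adjusted p = 0.0121 and 2.15e-04). The regions of ZNF324B, ZNF417, ZNF460 and the one shared by ZNF577 and ZNF649 had log2 changes from -0.21 to 0.03, which did not pass. Over all 223 member regions the mean CPM of IP tags had a median of 58.7, close to 57.3 over all regions.

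The numbers of lower and higher regions varied along the chromosome. Members were grouped where neighbouring starts lay within 1 Mb, which gave 7 clusters of at least 16 genes. In the cluster at chr19:19668796-24129968, which holds ZNF91, ZNF43 and ZNF66, 10 of 24 regions had fewer IP tags in MDV-R and 0 had more. The cluster at chr19:51571283-53580269 had 12 lower and 1 higher of 43, and the one at chr19:55476617-58481230, with ZNF814 and ZNF132, 16 lower and 1 higher of 62. At chr19:43525497-45076478, with ZNF222 and ZNF226, 7 were higher and 2 lower of 21, and at chr19:36182276-37817300, with ZNF566 and ZNF565, 4 and 3 of 24. The median log2 changes of these 5 clusters, in the order given, were -0.19, -0.18, -0.10, 0.27 and 0.10. The cluster at chr19:7069703-9793180 had 1 lower and 2 higher of 12 (median -0.03). The one at chr19:11483427-12640098 had 5 lower and 1 higher of 22 (median -0.08). Over all member regions 22.4% were lower and 7.62% higher, and over all regions 14.8% and 20.8%. The difference between clusters was not tested.

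**Figure D5:**
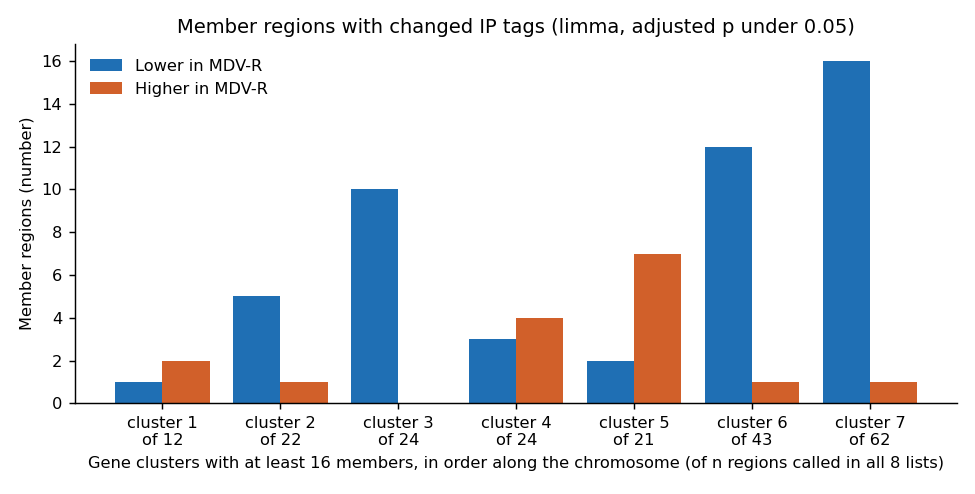
Number of member regions with fewer (blue) or more (orange) IP tags in MDV-R at an adjusted p under 0.05 in the 7 clusters of at least 16 members, ordered along the chromosome, with the number of regions called in all 8 lists under each. Cluster 3 has 10 lower and 0 higher regions, and cluster 5 has 2 and 7.

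Among 15 genes whose proteins act with KRAB zinc finger proteins, 5 held an exonic summit, and each of these in all 8 lists: SETDB1, its partner ATF7IP, the HUSH complex genes TASOR and MPHOSPH8, and UHRF1, which guides maintenance DNA methylation. TRIM28, the HP1 genes CBX1, CBX3 and CBX5, HDAC1, HDAC2, CHD3, CHD4, PPHLN1 and DNMT1 had none in any list. The 5 genes held 8 regions called in all 8 lists, of which 2 had more tags in MDV-R and 1 fewer, beside 20.8% and 14.8% of all regions. A region of SETDB1 had 85.1 ± 15 CPM of IP tags in C4-2B, while MDV-R had 118 ± 9.80 (SD over 4 libraries each, log2 change 0.48, limma adjusted p = 0.00244). A region of TASOR had 103 ± 17.2 CPM of IP tags in C4-2B, while MDV-R had 128 ± 7.15 (SD over 4 libraries each, log2 change 0.33, limma adjusted p = 0.0403). The region of UHRF1 had 90.9 ± 15.3 CPM of IP tags in C4-2B, while MDV-R had 54.8 ± 9.67 (SD over 4 libraries each, log2 change -0.73, limma adjusted p = 1.26e-05), and its fold enrichment rose from 12.9 ± 3.66 to 29.2 ± 7.21 (log2 change 1.19, limma adjusted p = 0.0390).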

How the data were processed

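MeRIP-seq of 2 lines gave 16 libraries (4 IP and 4 input per line). According to the study's methods and the labels, the authors aligned reads with STAR 2.7.0 to hg38 with GENCODE release 39, used SAMtools 1.10 to drop duplicates and reads mapped to several places, and ran MACS2 3.0.0a6 on each IP replicate against its input (no model, tags extended to 100 nt, 300 Mb as genome size). Strand was not used in calling peaks, although the kit keeps it. Duplicate removal at this depth limits the highest tag counts. The deposited peak lists give a fold enrichment (a ratio of IP pileup to local background), −log10 p and −log10 q values as MACS2 wrote them, a summit and a score, which the authors' caller set to the −log10 q value times 10. A deposited bed file holds merged regions, which are not a plain union of the peaks. No input depth is given.

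Genes came from GENCODE release 44. A region was called in a list if a peak overlapped it by 1 bp, and took the values of its strongest peak by −log10 p. IP tags and local background were solved from each peak's fold enrichment and −log10 p under MACS2's Poisson model. Log2 values of CPM (IP tags scaled to the library total), fold enrichment and background were compared with limma 3.58.1 (variance trend, R 4.3.3) over all regions called in all 8 lists, with Benjamini-Hochberg adjustment at 0.05. Shares were compared with exact permutation tests (70 arrangements of 4 and 4 lists, or 256 sign flips over 8 lists). Other computations used Python 3.11.15, numpy 2.4.6, scipy 1.17.1 and pandas 2.3.3. The solving of tags and the limma step were tested on simulated data. Zinc fingers, linkers and the KRAB A box were found by amino acid patterns.

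The members, gene lists and tests were chosen with earlier results of these data known. Named were the 10 member regions with the largest decrease and the 10 with the largest increase in IP tags past the threshold, those past it in fold enrichment, the 10 with the most tags, those called in 1 line alone, and the 5 genes with the most fingers and with the most regions. The 8 printed windows were picked from these after their values were seen. Intervals are not given for tag counts, which carry counting error besides the spread between libraries.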

Additional observations from a re-analysis of the deposited data

Results flagged for a closer look

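In 84 groups of 4 libraries or lists examined for a value far from the rest, 6 such values were found, and chance alone marks about 5% of groups. Of these, 3 belonged to C4-2B replicate 1, the list with the fewest peaks: it held exonic summits in 201 member genes, its share of member summits in a last exon was 97.1%, and its share in coding sequence was 72.5%. The other 3 were single libraries of MDV-R. Replicate 1 had 65.5 CPM of IP tags at the ZNF222 region, replicate 4 had 80.3 CPM at the ZNF628 region, and replicate 2 had 193 CPM at the ZNF865 region. Each lay far from the other 3 libraries of its line, by 0.941, 0.924 and 0.882 of the range of that line.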

How the results depend on the processing

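Of 160 combinations of a result with an alternative, 130 kept the direction and the side of the threshold, or stayed within 1.5 times a count. The last exon, GGAC, DRACH and fold enrichment percentile results did so under all alternatives run. The coding share turned to -3.91 percentage points against other genes with a long last coding exon. With lists of equal size the difference in member genes was -10.5, past the threshold. The lower share of member summits in MDV-R was -0.70 percentage points with exons shared between genes left out, no longer past the threshold, and -0.85 to -0.47 when each replicate was left out (the smallest exact p that 4 against 3 lists allow is 0.0571). Leaving out each replicate gave 13 to 20 member regions called in 1 line only (20 without C4-2B replicate 1). With libraries centred on their median, 113 member regions changed in IP tags and 1 in fold enrichment. With at least 20 IP tags in every library, 0 changed in fold enrichment. Leaving out each replicate gave 0 to 48 changed member regions in fold enrichment (48 without MDV-R replicate 3, 0 without C4-2B replicate 4 or MDV-R replicate 1, 2 or 4, and 1 to 2 without C4-2B replicate 1, 2 or 3) and 24 to 103 in local background (103 without MDV-R replicate 3, and 24 to 30 without C4-2B replicate 1 or 4 or MDV-R replicate 1, 2 or 4). In IP tags it gave 47 to 98, the highest without C4-2B replicate 1. The cause of these shifts was not tested. Assigning peaks by their summit, an alternative chosen after seeing the data, gave 10 regions called in 1 line, 66 changed in IP tags, 3 in fold enrichment and 47 in local background. At about 35 to 50 tags per member summit, small changes are not detectable.

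The labels number the replicates alike in both lines. The deviations of same-numbered libraries from their line means correlated at -0.0668 to 0.0437, and 4 of 8 libraries were closest to their own number. Whether the numbers pair the samples was not tested, and these values do not settle it. With a replicate block, 73 member regions changed in IP tags, 4 in fold enrichment and 49 in local background, and the member share differed by -0.72 percentage points at an exact p of 0.125, the smallest that 4 pairs allow.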
